A study of Mus musculus with 6 samples.

Results

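The genes described here encode the mitochondrial respiratory chain and ATP synthase, and they were read across 11 clusters of mouse haematopoietic stem cells (HSCs). A gene was a member if its name began with Nduf, Sdh, Uqcr, Cox and a digit, Atp5 or Cyc1, or if it was a protein-coding gene of the mitochondrial genome (mt-Nd, mt-Co, mt-Cytb, mt-Atp). This rule found 117 of the 17068 genes listed. They comprised 13 mitochondrially encoded genes, 82 nuclear-encoded subunit genes and 22 nuclear genes that the rule also takes in, nearly all of them factors that assemble the complexes. The nuclear subunits divided into 37 of complex I, 4 of complex II, 9 of complex III, 15 of complex IV and 17 of complex V. Ndufa4 was counted with complex IV, where its protein is found despite the name, and Cox7a2l was counted with the assembly factors, as a factor of supercomplexes.

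The HSCs came from bone marrow of Gfp-Lc3 mice, in which a fluorescent protein is fused to the autophagosome protein LC3, and their RNA was sequenced cell by cell in droplets. There were 6 libraries, from 3 young and 3 old mice, with 1 mouse per library: young mice fed ad lib, young mice after a 24 hour fast, young mice after a 24 hour fast and 24 hours of refeeding, and old mice in the same 3 feeding states. The labels give neither the ages in months nor the sexes, and all groups carry the reporter. The values come from the authors' deposited tables, which compare each cluster, numbered 0 to 10, with the remaining cells of all libraries together. How many cells of a cluster came from each mouse was not analysed here, so no value below compares ages or feeding states. Because the tables pool the mice, they allow no test between animals, and a spread given below is a spread over genes.

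Mitochondria oxidise NADH and succinate through complexes I and II, pass the electrons by ubiquinone to complex III and by cytochrome c to complex IV, and use the proton gradient so built to make ATP at complex V. The mitochondrial genome encodes core subunits of complexes I, III, IV and V but none of complex II, while the other subunits are encoded in the nucleus, made in the cytoplasm and imported. Quiescent HSCs are known for a low reliance on oxidative phosphorylation, and they raise it when they begin to divide or differentiate. Assembly of complexes I, III, IV and V needs subunits from both genomes, so transcripts of both genomes are read side by side.

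The p-values the authors deposited imply 22378 cells in all. Clusters 0 to 4 held 3747 to 4904 cells each, cluster 5 held 1188, and clusters 6 to 10 held 310, 267, 173, 112 and 10. Sizes fitted by least squares, so that the cluster means add up to the mean over all cells, differed for some clusters: they were 2.81% of cells in place of 5.31% for cluster 5, 2.11% in place of 1.39% for cluster 6, 0.16% in place of 0.5% for cluster 9 and too small to estimate for cluster 10. Counts per library were not analysed here. Of 17055 genes with a count, 2551 had none in cluster 6 and 2740 had none in cluster 7, against 162 to 297 in clusters 0 to 4. Taken over all genes, deposited log2 folds had medians of -0.32 (cluster 6), -0.17 (cluster 7) and 0.12 (cluster 10), and within 0.1 of 0 in each of the other clusters. All 10 markers of long-term HSCs on the list used, among them Hlf, Mecom and Procr, were detected in every cluster, with a summed level of 11.8 counts per 10000 in cluster 6, the lowest, and 15.8 over all cells. In cluster 6, however, the summed level of 6 erythroid markers was 13.5 counts per 10000 against 2.96 over all cells, and 3 T cell markers summed to 0.185 against 0.0166. Of these markers only Hbb-bs (log2 fold 1.99) had a deposited adjusted p under 0.05 there. How many cells of the cluster carry these counts was not analysed here. The authors' clusters rest on these same expression values, which builds part of each contrast in.

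The mitochondrial genes are packed end to end, and some share bases, which bears on how a read can be assigned. The last 60 bases of 4 genes are shown for that reason, written 5′ to 3′ in the direction of the gene. Capitals mark the bases that also belong to a neighbouring gene. They come from GENCODE M21 transcripts on the GRCm38 build, the counterpart of mm10. The end of mt-Atp8 at chrM:7910-7969 (plus strand) shares 43 bases with the start of mt-Atp6, and the end of mt-Nd4l at chrM:10114-10173 (plus strand) shares 7 bases with the start of mt-Nd4. The ends of mt-Nd5 (chrM:13506-13565, plus strand) and mt-Nd6 (chrM:13552-13611, minus strand) share 14 bases on opposite strands. The strand setting of the authors' counting was not given in the sources used here, so reads from these shared stretches cannot be assigned with certainty.
mt-Atp8: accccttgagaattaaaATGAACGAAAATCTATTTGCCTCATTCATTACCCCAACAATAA
mt-Nd4l: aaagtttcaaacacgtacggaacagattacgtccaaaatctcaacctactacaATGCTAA
mt-Nd5: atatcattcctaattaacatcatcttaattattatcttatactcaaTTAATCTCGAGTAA
mt-Nd6: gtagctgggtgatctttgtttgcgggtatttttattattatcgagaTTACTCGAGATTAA

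The nuclear genes have promoters of their own on many chromosomes, and one stretch is shown for each complex, from a gene that carries a match to a factor known for such promoters. These factors are NRF1 and the ETS factor GABPA, also called nuclear respiratory factors, and YY1. Each stretch is the 150 bases before the start site in RefSeq (GRCm38.p6), 5′ to 3′ in the direction of the gene, with matches in capitals. Ndufs6 of complex I lies at chr13:73328483-73328632 (minus strand), Sdhd of complex II at chr9:50603850-50603999 (minus strand), and Uqcrh of complex III at chr4:116075071-116075220 (minus strand). Cox6a1 of complex IV lies at chr5:115348959-115349108 (minus strand) and Atp5c1 of complex V at chr2:10080433-10080582 (minus strand).
Ndufs6: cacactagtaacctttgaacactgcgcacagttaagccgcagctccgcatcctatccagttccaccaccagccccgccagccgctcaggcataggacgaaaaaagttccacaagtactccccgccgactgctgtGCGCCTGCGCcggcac
Sdhd: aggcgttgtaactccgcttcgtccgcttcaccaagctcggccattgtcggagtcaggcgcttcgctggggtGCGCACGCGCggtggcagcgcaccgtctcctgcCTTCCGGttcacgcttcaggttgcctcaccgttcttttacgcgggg
Uqcrh: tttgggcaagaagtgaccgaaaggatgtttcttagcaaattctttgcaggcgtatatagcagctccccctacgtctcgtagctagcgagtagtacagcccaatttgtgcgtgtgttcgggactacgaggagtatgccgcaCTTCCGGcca
Cox6a1: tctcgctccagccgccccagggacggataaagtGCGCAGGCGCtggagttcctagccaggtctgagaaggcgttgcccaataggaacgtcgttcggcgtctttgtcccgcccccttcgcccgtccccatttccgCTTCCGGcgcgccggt
Atp5c1: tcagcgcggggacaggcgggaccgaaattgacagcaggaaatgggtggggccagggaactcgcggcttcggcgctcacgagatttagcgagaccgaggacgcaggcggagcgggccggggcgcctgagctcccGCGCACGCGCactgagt

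The motifs were searched on both strands in windows from 250 bases before to 50 after the start, of which 73 belonged to 68 of the 82 nuclear subunit genes. The ETS core CCGGAAG was in 23.3% of these windows and in 8.86% of all 32851 windows. The NRF1 core (GCGC, any 2 bases, then GCGC, the same on both strands) was in 27.4% and 6.23%, and the YY1 core AAGATGGC in 13.7% and 2.75%. By complex, the NRF1 core was found in 9 of 33 genes of complex I, 2 of 3 of complex II, 1 of 5 of complex III, 1 of 12 of complex IV and 6 of 15 of complex V. The YY1 core was found in 7 genes of complex I and 3 of complex V. None of these motifs overlaps another in the stretches shown. A match describes these letters, and none was related to binding in these cells.

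The 2 genomes moved in opposite directions in cluster 7. There all 12 mitochondrially encoded genes other than mt-Nd6 were higher, with deposited log2 fold changes from 0.85 (mt-Atp8) to 1.30 (mt-Nd4l) and a median of 1.16, while the 82 nuclear subunits had a median of -0.62. A call needed a deposited fold of at least 0.5 in size on the log2 scale together with a deposited adjusted p under 0.05 (the size rule). By it all 12 of these genes were higher in cluster 7, where 1.84% of all genes were, and 58 of 82 nuclear subunits were lower, where 24.3% of all genes were. No nuclear subunit was called higher. Shares of all genes take in genes with no count in the cluster, which lie below 0 and can pass as lower. In cluster 7, 4148 genes were called lower and 2740 had no count. Such shares are therefore not those of well-counted genes. Over clusters 0 to 9, 85 of 117 members passed the rule in at least 1 cluster, where 57.6% of all genes did. Without cluster 7 the count was 19 of 117, where 48.6% of all genes passed, so most of the calls rest on that cluster of 267 cells, and it fell from 63 to 8 for the nuclear subunits and from 9 to 0 for the assembly factors. The deposited p-values count cells as replicates and served here only as a filter.

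In cluster 6 the mitochondrially encoded genes were lower and the nuclear subunits were not. The median of the 12 genes was -0.72, with all 12 below 0 (-1.18 to -0.46; 77% of all genes), and 10 of 12 passed the size rule, against 26.2% of all genes called lower there. The median of the nuclear subunits was 0.07, and 55 of 82 lay above 0, against 23% of all genes. Of the nuclear subunits only Cox7b2, which had no count in the cluster, passed the rule in the lower direction. Most genes were shifted down in cluster 6, and relative to the median of genes at or above the median level the mitochondrial median was -0.46 and the nuclear median 0.33.

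**Figure D1:**
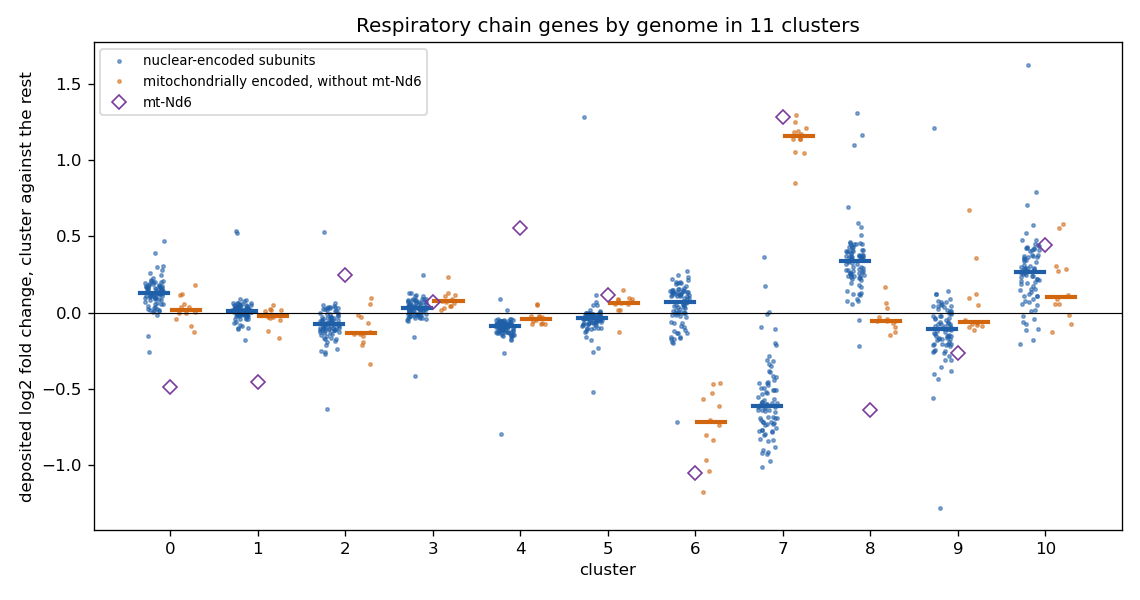
Each point is a gene, plotted by its deposited log2 fold change (vertical axis) in each of 11 clusters (horizontal axis), with nuclear-encoded subunits in blue, mitochondrially encoded genes in orange and mt-Nd6 as open diamonds; bars are medians, and genes with no count in a cluster are not drawn. The orange and blue sets lie apart in clusters 6 and 7, with medians of -0.72 and 0.07 in cluster 6 and of 1.16 and -0.62 in cluster 7.

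Expressed as a share of all counts, the 12 mitochondrially encoded genes made up an estimated 4.26% over all cells. The share was 9.34% in cluster 7 and 2.88% in cluster 6, and it lay between 3.99% (cluster 2) and 4.48% (cluster 5) in the other 9 clusters. The nuclear subunits together made up 1.67% over all cells, 1.07% and 2.07% in clusters 7 and 8, and between 1.57% and 1.96% in the others. Mitochondrially encoded counts per nuclear subunit count were therefore 8.70, 1.64 and 1.97 in clusters 7, 6 and 8, against 2.55 over all cells. A rise in the mitochondrial share takes room from other genes, and in cluster 7 this alone comes to a shift of -0.08 on the log2 scale for all other genes together.

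**Figure D2:**
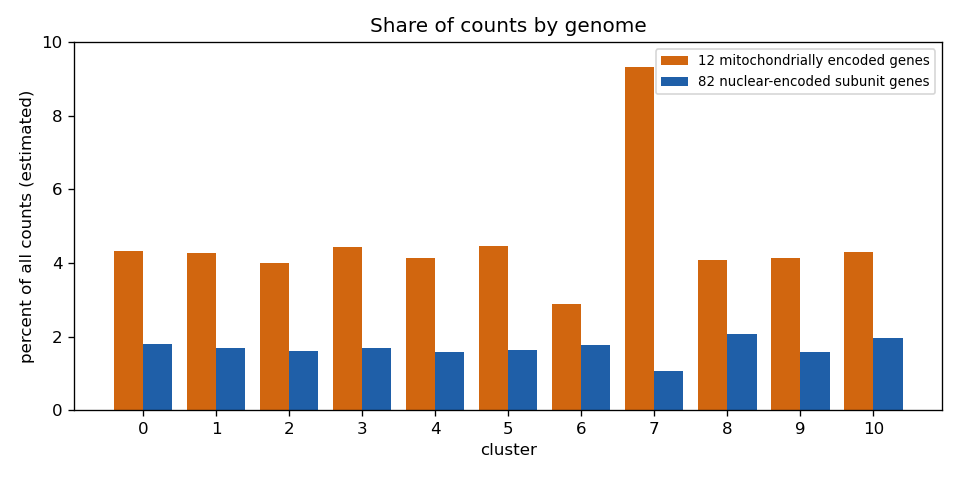
Bars give the estimated percent of all counts (vertical axis) held by 12 mitochondrially encoded genes (orange) and 82 nuclear-encoded subunit genes (blue) in each cluster (horizontal axis). The orange bar stands at 9.34% in cluster 7 and 2.88% in cluster 6, and the blue bar is lowest in cluster 7 at 1.07%; the bars carry no error because the tables pool the mice.

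Other measures moved with the genome split in these small clusters. In cluster 7 the 78 cytoplasmic ribosomal protein genes, which are not members, had a median of -0.92, and the summed level of 6 nuclear RNAs was 321 counts per 10000 against 208 over all cells, of which Malat1 made up 200.1. The folds of Malat1, Neat1 and Kcnq1ot1, each retained in the nucleus, were 0.63, 0.63 and 0.90 there. In cluster 6 the 6 RNAs summed to 129, with these 3 at -0.69, -0.46 and -1.07, and the ribosomal protein median was 0.04. Fold changes in cluster 7 also ran with transcript length: across 75 nuclear subunits with a log2 mean level of at least -1, Spearman's rho between the fold and the median length of coding transcripts was 0.32, and across 2623 other genes at that level it was 0.51. In cluster 6 these values were -0.30 and -0.52. The relation was not limited to small clusters. Across the other genes rho was 0.45 in cluster 4 and -0.42 in cluster 1, while across the subunits it was -0.07 and 0.17. Nuclear subunits have short transcripts, with a median of 659 bases against 1577 for the other genes. The 18 shortest, of 321.5 to 544 bases, had a median of -0.73 in cluster 7, and the 18 longest, of 1000 to 2675.5 bases, had -0.55. In cluster 7 the fold fell with mean level too (rho -0.46 across the 75 subunits). These correlations are across genes of the same cells and carry no p. The part of ribosomal, nuclear or length-related RNA differences in the result was not tested.

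The mitochondrially encoded genes are read here complex by complex, and complex I comes first with 6 genes besides mt-Nd6. They encode the membrane arm that pumps protons. The level of mt-Nd1 (chrM:2751-3707) lay between 13.2 and 18.1 counts per 10000 in 9 clusters and was 7.62 in cluster 6 and 30.2 in cluster 7. That of mt-Nd2 (chrM:3914-4951) was 8.20 in cluster 6 and 31.8 in cluster 7, against 13.6 over all cells. Both were thus lowest in cluster 6 and highest in cluster 7 of all 11 clusters, with no other cluster close to either. The 6 genes ran from -1.18 (mt-Nd4l) to -0.70 (mt-Nd4) in cluster 6 and from 1.05 (mt-Nd1) to 1.30 (mt-Nd4l) in cluster 7. In cluster 2 the median of the 6 was -0.13, with mt-Nd3 at -0.33, whereas mt-Nd4l (0.09) and mt-Nd5 (0.06) lay above 0.

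Complex III has a single mitochondrially encoded gene, mt-Cytb, whose protein carries the haems of cytochrome b. Its level was 22.2 counts per 10000 in cluster 6, 83.6 in cluster 7 and 35.3 to 41.0 elsewhere. Complex IV has 3, of which mt-Co1 and mt-Co2 hold the metal centres that reduce oxygen. The level of mt-Co1 (chrM:5328-6872) was 61.1 in cluster 6, 179.5 in cluster 7 and 82.1 to 91.1 elsewhere, and its folds of -0.53 and 1.05 in those 2 clusters were among the smaller ones. The folds of mt-Co2 were -0.57 and 1.17, and those of mt-Co3 were -0.47 and 1.18. Complex V has mt-Atp6, which forms part of the proton channel, at -0.46 and 1.21, and mt-Atp8 at -0.62 and 0.85. In cluster 6 the 5 genes of complexes IV and V lay between -0.62 and -0.46, mt-Cytb was at -0.81, and the 6 of complex I all lay at or below -0.70. In cluster 7 no such order by complex was seen, as the complex I genes (1.05 to 1.30) overlapped those of complexes III to V (0.85 to 1.21).

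**Figure D3:**
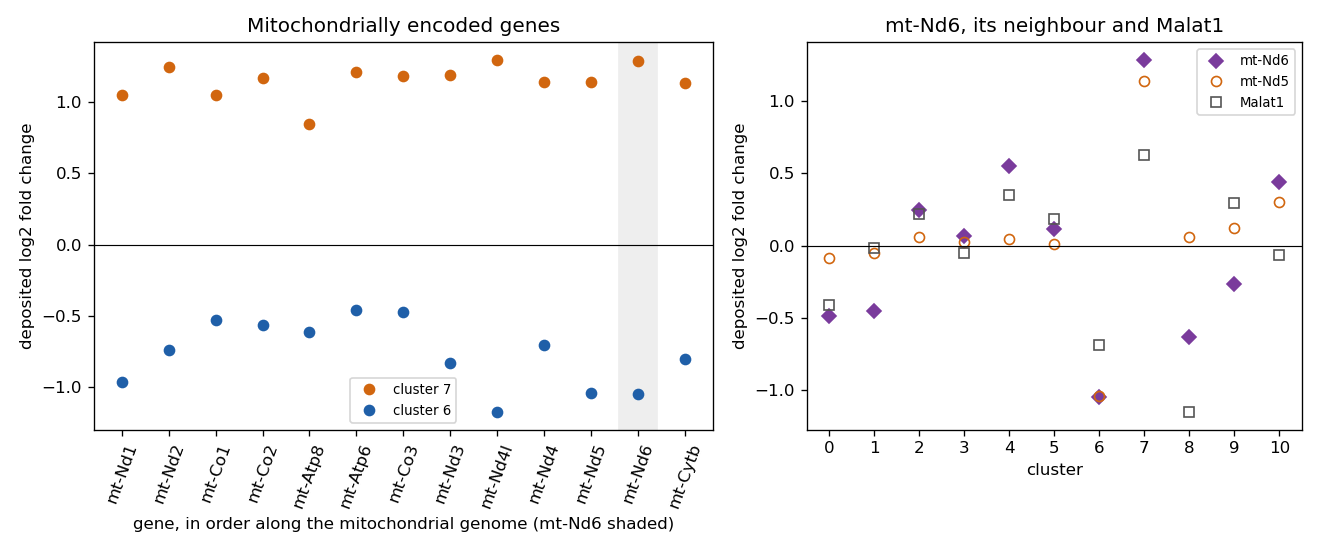
Left, deposited log2 fold change (vertical axis) of the 13 mitochondrially encoded genes in genome order (horizontal axis) in cluster 7 (orange) and cluster 6 (blue), with mt-Nd6 shaded; right, fold of mt-Nd6 (diamonds), mt-Nd5 (circles) and Malat1 (squares) in each of 11 clusters. All 13 genes lie above 0 in cluster 7 and below 0 in cluster 6, while on the right mt-Nd6 departs from mt-Nd5 in clusters 0, 1, 4, 8 and 9.

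Outside clusters 6 and 7 the 12 genes stayed near the rest of the cells. Their medians were 0.02, -0.02, -0.13, 0.07, -0.04 and 0.07 in clusters 0 to 5, -0.06 in clusters 8 and 9 and 0.10 in cluster 10. All 12 lay above 0 in cluster 3 (0.02 to 0.23), where 51.7% of all genes did, and 10 of 12 lay below 0 in cluster 2, where 45.9% of all genes did. With a finer rule, a fold of at least 0.1 with the same adjusted p, 7 of 12 were lower in cluster 2 (12.2% of all genes) and 4 of 12 higher in cluster 3 (6.57%). In cluster 9 mt-Atp8 alone of the 12 passed the size rule, at 0.68 (1.2% of all genes there), with a level of 1.46 counts per 10000 against 0.917 over all cells. Its overlapping neighbour mt-Atp6 was at -0.08 in that cluster. In cluster 10, of 10 cells, mt-Nd3 passed at 0.55 (1.79% of all genes).

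The gene mt-Nd6 (chrM:13552-14070) is the only protein-coding gene on the other strand of the mitochondrial genome, and it did not follow the other 12. In clusters 0 to 5, in that order, its level was 0.457, 0.460, 0.690, 0.625, 0.818 and 0.649 counts per 10000. In clusters 6 to 10 it was 0.292, 1.44, 0.388, 0.501 and 0.818. It was thus highest in cluster 7 and lowest in cluster 6, as the others were, but it also differed among the large clusters, where the others were nearly level. The deposited log2 folds were -0.49 and -0.46 in clusters 0 and 1, 0.55 in cluster 4 and -0.64 in cluster 8. In these 4 clusters, and also in clusters 2 (0.24) and 9 (-0.26), its fold lay outside the range of the other 12 genes. It passed the size rule as higher in clusters 4 (0.387% of all genes) and 7, and as lower in clusters 6 and 8 (19.5% in cluster 8). It was further at 0.07 and 0.12 in clusters 3 and 5, at -1.05 and 1.29 in clusters 6 and 7 and at 0.44 in cluster 10, within the range of the others.

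Its neighbour mt-Nd5, which shares 14 bases with it at the 3′ end, was at -0.09, -0.05, 0.05 and 0.06 in clusters 0, 1, 4 and 8. The nuclear long non-coding RNA Malat1 was at -0.41, -0.02, 0.35 and -1.16 in the same clusters, Neat1 was at -0.35, -0.26, 0.55 and -0.10, and Kcnq1ot1 was at -0.09, -0.53, 0.42 and 0.32. In cluster 9, where mt-Nd6 was at -0.26, mt-Nd5 was at 0.12, Malat1 at 0.30, Neat1 at 0.81 and Kcnq1ot1 at -0.04. Thus mt-Nd6 lay on the side of Malat1 and Neat1 in the first 4 clusters, with Malat1 near 0 in cluster 1, and on the other side in cluster 9. Kcnq1ot1 lay on the other side in cluster 8. Meg3, a further RNA of the nuclear list, was at -1.41, 0.32, -0.06 and -1.96 in clusters 0, 1, 4 and 8. It lay on the other side from mt-Nd6 in clusters 1 and 4. In cluster 3 mt-Nd6 was at 0.07, and Malat1 and Neat1 were both at -0.05. Whether nuclear RNA content bears on mt-Nd6 counts was not tested, nor was counting of antisense reads.

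The nuclear subunits were highest in cluster 8 and lowest in cluster 7. Of 82, 70 (85.4%) had their highest fold among clusters 0 to 9 in cluster 8 and 74 (90.2%) their lowest in cluster 7, while 33.1% and 30.2% of 8415 other genes at or above the median level did. The median in cluster 8 was 0.34, with 80 of 82 above 0 (52% of all genes). The finer rule called 60 of 82 higher there, against 6.52% of all genes, and the size rule called 4, against 2.37%. The mitochondrially encoded genes did not share this, with a median of -0.06 and 9 of 12 below 0 (48% of all genes). Other genes moved in cluster 8 too. Malat1 was at -1.16, which set the sum of the 6 nuclear RNAs there (97.7 counts per 10000). Meg3, on the same list, was at -1.96, while Neat1 was at -0.10 and Kcnq1ot1 at 0.32. Xist and Snhg11 had no count in the cluster. Of 10 markers of long-term HSCs 4 were lower by the size rule (19.5% of all genes, those with no count included), namely Ly6a (-1.16), Procr (-0.79), Mllt3 (-0.67) and Slamf1 (-0.67). Of the other markers, Kit (0.32), Hlf (0.17) and Ctnnal1 (0.05) lay above 0, and Mecom, Hoxb5 and Fgd5 lay below 0. Of 6 cycling markers Mki67 was higher (2.98), from a mean of 0.0207 counts per 10000 over all cells, and the 6 summed to 1.28 counts per 10000 against 1.01. The part of these differences in the result was not tested.

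Among the large clusters, cluster 0 had the highest nuclear subunit median, 0.13, with 79 of 82 above 0 (51% of all genes) and 56 called higher by the finer rule (17.1% of all genes). Clusters 2 and 4 lay on the other side. In cluster 2 the median was -0.08 and 29 were lower by the finer rule (12.2% of all genes). In cluster 4 it was -0.09, with 80 of 82 below 0 (47.8% of all genes) and 32 lower by the finer rule (7.39%). The mitochondrially encoded median in cluster 0 was 0.02, so the mitochondrial median lay 0.11 below the nuclear one there. These differences are small, and the authors' p-values over cells do not measure a difference between mice. The 10 markers of long-term HSCs had medians of -0.51, 0.45 and 0.17 in clusters 0, 2 and 4, and 5 megakaryocyte markers summed to 1.94 in cluster 0 against 1.23. Kit, on the HSC list, lay on the other side of 0 from these medians in clusters 0 (0.10) and 2 (-0.17).

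The subunits kept close to each other. Among 78 nuclear subunits, without the 4 that are tissue-restricted isoforms, the SD of the folds over genes was 0.075, 0.042, 0.041 and 0.136 in clusters 0, 1, 4 and 8. Among 4395 other genes at or above the lowest mean level of these subunits it was 0.192, 0.105, 0.123 and 0.309. In cluster 7 the 2 values were 0.215 and 0.373. The 2 sets share a lower limit of mean level but were not matched in level above it. This is a description of spread over genes, and genes measured in the same cells are not independent.

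**Figure D4:**
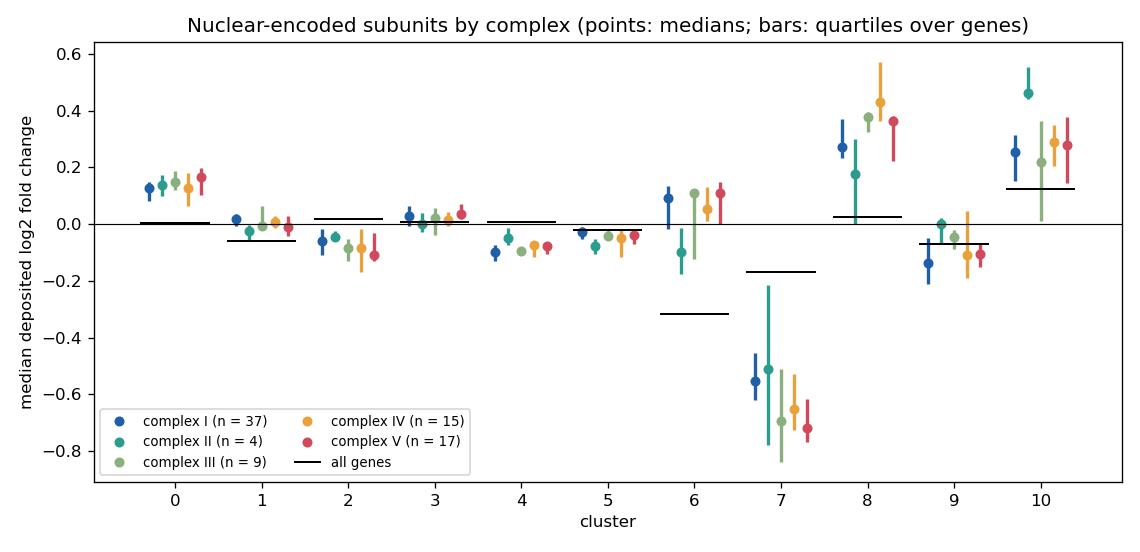
Points are the median deposited log2 fold change (vertical axis) of the nuclear-encoded subunits of each complex in each of 11 clusters (horizontal axis), bars run from the lower to the upper quartile over genes, and black lines are the median of all genes. The 5 complexes lie together within each large cluster; in cluster 7 their medians run from -0.72 (complex V) to -0.51 (complex II), and in cluster 8 from 0.18 (complex II) to 0.43 (complex IV).

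Complex I accepts electrons from NADH, and its 37 nuclear subunits had medians of 0.13, -0.10, -0.55 and 0.27 in clusters 0, 4, 7 and 8. The size rule called 23 of 37 lower in cluster 7 (24.3% of all genes), and the finer rule 35 (28.2% of all genes). The accessory subunit gene Ndufs6, whose promoter is shown above, had a level of 0.497 counts per 10000 in cluster 7, 1.12 in cluster 8 and 0.728 to 1.08 elsewhere. Its lowest level was therefore in cluster 7 and its highest in cluster 8, with folds of -0.77 and 0.41. The lowest fold of the complex in cluster 7 was that of Ndufb10 (-0.91). Ndufa1, an accessory subunit gene on chromosome X, passed the size rule in cluster 8 (0.59) and fell in cluster 7 (-0.54). Ndufb1-ps, which the annotation lists as a long non-coding RNA at a bidirectional promoter despite its subunit name (chr12:101968090-101977068), had the highest fold of the complex in cluster 0 (0.39) and was at -0.78 in cluster 7.

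The catalytic core, 7 of the 37, is the part that holds the flavin and the iron-sulphur clusters. This split was made after the values were seen. The median of the core was -0.47 in cluster 7 and 0.22 in cluster 8, and that of the 30 accessory subunits was -0.59 and 0.29. The core ranged up to Ndufs1, which carries iron-sulphur clusters and was at 0.00 in cluster 7, with a level of 0.303 counts per 10000 there and 0.276 to 0.351 in the other clusters. Its level in cluster 7 lay inside the range of the others. The 2 sets overlapped, as the accessory subunits reached -0.10 in cluster 7 (Ndufa10).

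Complex II, succinate dehydrogenase, is the only one with no mitochondrially encoded subunit, and its 4 genes moved unequally. Sdhb, the iron-sulphur subunit gene, was at 0.382 counts per 10000 in cluster 7 and at 0.623 to 0.987 in the other clusters, a fold of -0.90. Sdhd, a membrane anchor gene, was at -0.74 there, and both passed the size rule. Sdhc, the other anchor gene, was at -0.28, and Sdha, the gene of the flavoprotein that oxidises succinate, was at -0.01. The level of Sdha was 0.917 counts per 10000 in cluster 7 and 0.796 to 0.975 in clusters 0 to 6, 8 and 9, so cluster 7 did not stand apart for it. In cluster 8 Sdha was at -0.22 while Sdhb was at 0.37. The medians of the 4 were 0.14, -0.05, -0.51 and 0.18 in clusters 0, 4, 7 and 8.

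Complex III passes electrons from ubiquinol to cytochrome c, and its 9 nuclear genes had medians of 0.15, -0.09, -0.69 and 0.38 in clusters 0, 4, 7 and 8. Uqcrh, the hinge subunit gene, had the lowest fold of any nuclear subunit in cluster 7, -1.01. Its level was 3.57 counts per 10000 in cluster 7, 8.94 in cluster 8 and 6.59 to 7.83 in the others, so cluster 7 lay far below the rest. Uqcr10, a small subunit gene, was at 1.02 counts per 10000 in cluster 7 and 1.71 to 2.39 in the others, with a fold of -0.83. In all, 7 of 9 were lower by the size rule in cluster 7 (24.3% of all genes). The exceptions were Uqcrc1 (-0.11), a large core protein gene, and Cyc1 (-0.21), the gene of the haem protein cytochrome c1. Uqcrc1 passed the size rule in cluster 8 instead (0.56), with 1.10 counts per 10000 there and 0.672 to 0.998 elsewhere.

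Complex IV, cytochrome c oxidase, had 15 nuclear subunits with medians of 0.13, -0.07, -0.65 and 0.43 in clusters 0, 4, 7 and 8. By the size rule 12 of 15 were lower in cluster 7, where 24.3% of all genes were; Cox7b2 was among them only because it had no count. Cox7b was at 0.99 counts per 10000 in cluster 7 and 1.71 to 2.66 in the others (fold -0.92). Cox5a was lower in cluster 9 as well (-0.56), at 1.39 counts per 10000 against 2.05 over all cells. It was the only nuclear subunit called there. Of all genes 19.9% were lower in cluster 9 (3390 genes), where 3350 genes had no count and could pass as lower. Levels of Cox5a were 1.24 in cluster 7 and 1.78 to 2.79 in the other 9 clusters, so clusters 7 and 9 lay below the rest. Cox6b2, a copy known from testis, had the largest fold of any subunit past the rule in cluster 8, 1.31. Its level was 1.08 counts per 10000 there, 0.565 in cluster 0 and 0.347 to 0.459 in the others.

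Several subunits of complex IV have isoforms that mark tissues. The widely expressed Cox4i1 was at 4.23 counts per 10000 in cluster 7 and 6.30 to 7.69 elsewhere, with folds from -0.11 to 0.18 outside cluster 7. Its partner Cox4i2, the isoform known from lung, lay below the median level of all genes and passed the size rule as higher in cluster 2 (0.53, where 3.02% of all genes did), at 0.069 counts per 10000 against 0.051 over all cells. Cox7a1, known from heart and muscle, was lower in cluster 4 (-0.80, where 1.35% of all genes were), at 0.006 against 0.010 counts per 10000. Cox7b2 had no count in clusters 6, 7 and 10, which in cluster 7 allows up to 1.12% of cells with a count. These last 3 genes are so thinly counted that their folds are uncertain. Cox6b1, Cox7a2 and Cox8a, the common forms, were at -0.81, -0.63 and -0.78 in cluster 7 and at 0.32, 0.36 and 0.30 in cluster 8. Cox6a1 was at -0.51 and 0.45 in these clusters. Cox6a2, Cox8b, Cox8c and Ndufa4l2 were not among the 17068 genes listed.

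Complex V, the ATP synthase, had 17 nuclear subunits with medians of 0.17, -0.08, -0.72 and 0.36 in clusters 0, 4, 7 and 8. By the size rule 14 of 17 were lower in cluster 7 (24.3% of all genes) and all 17 lay below 0 (61% of all genes). Atp5j2, a stalk-side membrane subunit gene, was at 1.50 counts per 10000 in cluster 7 and 2.64 to 3.88 elsewhere, a fold of -0.98. Atp5c1, the gene of the rotating gamma subunit, was at 1.60 in cluster 7, 3.74 in cluster 8 and 2.54 to 3.30 in the others, with folds of -0.77 and 0.46. Atp5b, the gene of the catalytic beta subunit, differed from these: it was at -0.20 in cluster 7, at 2.86 counts per 10000, near its level of 2.91 in cluster 2. It was higher by the size rule in cluster 8 (0.51, at 4.67 counts per 10000) and had a fold of 0.31 in cluster 0. The 3 genes of the c ring, Atp5g1, Atp5g2 and Atp5g3, whose mature proteins are alike, were at -0.57, -0.68 and -0.62 in cluster 7 and at 0.09, 0.21 and 0.38 in cluster 8.

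In the larger clusters the complexes differed little from each other. Within each of clusters 0 to 5 the highest and the lowest of the 5 medians were at most 0.06 apart (in cluster 2), whereas in clusters 6 to 10 they were 0.209, 0.209, 0.255, 0.141 and 0.241 apart. Every complex had a median above 0 in clusters 0, 3, 8 and 10 and below 0 in clusters 2, 4, 5 and 7. Complex II stood lowest in clusters 1, 3, 5, 6 and 8, with medians of -0.10 and 0.18 in clusters 6 and 8. It stood highest in clusters 2, 4, 7, 9 and 10, and it rests on 4 genes.

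**Figure D5:**
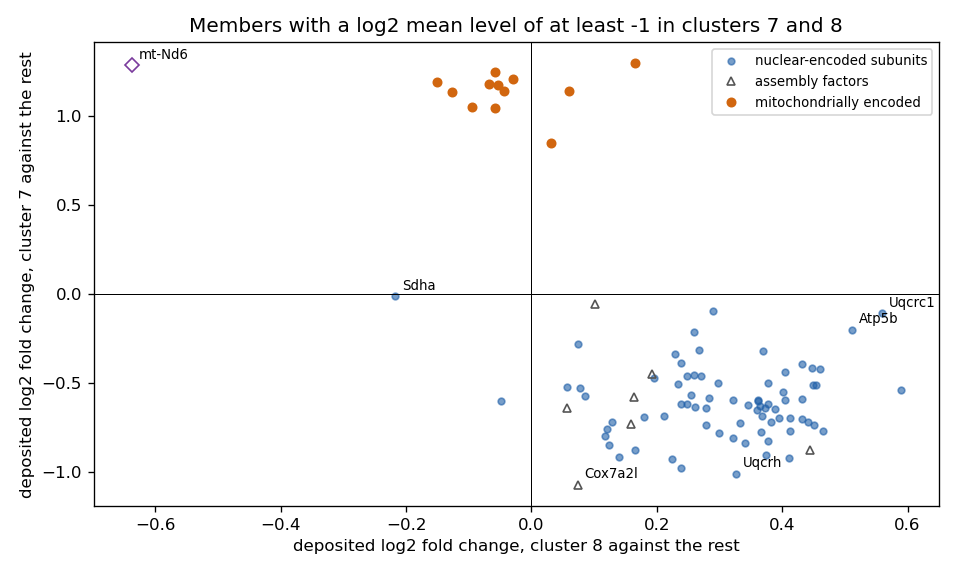
Each point is a member with a log2 mean level of at least -1, plotted by its deposited log2 fold change in cluster 8 (horizontal axis) and cluster 7 (vertical axis): nuclear subunits in blue, assembly factors as triangles, mitochondrially encoded genes in orange, mt-Nd6 as a diamond. The nuclear subunits Atp5md and Ndufb1-ps lacked a coding transcript length and are not drawn. Nearly all nuclear subunits lie at the lower right (lower in cluster 7, higher in cluster 8), Sdha lies at -0.22 and -0.01, and the mitochondrially encoded genes lie at the top; both comparisons share most of their reference cells.

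The 22 assembly factors and related genes followed the subunits with smaller folds. Their medians were 0.09, -0.06, -0.46 and 0.21 in clusters 0, 4, 7 and 8. By the size rule 9 of 22 were lower in cluster 7 (24.3% of all genes), of them 3 of 8 for complex I, 2 of 4 for complex II and 4 of 10 for complex IV. Ndufaf6, a complex I assembly factor gene, had the lowest fold of all members with a count there, -2.42, from a mean of 0.134 counts per 10000 over all cells. Cox7a2l was at 3.23 counts per 10000 in cluster 7 and 5.79 to 7.25 in the others, and its fold of -1.07 was below that of every nuclear subunit with a count. Sdhaf4 (-0.88) and Cox14 (-0.73) also fell there, whereas Cox10, an enzyme of haem a synthesis, was at 0.36 and did not pass.

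Genes that work beside the chain were read from lists outside the naming rule. The first list held 8 genes that move ADP, phosphate and protons across the inner and outer membranes or act on ATP synthase. By the size rule 6 of them were lower in cluster 7 (24.3% of all genes), and by the finer rule 7 were higher in cluster 0 (17.1%). Ucp2, an uncoupling protein gene, passed the size rule as higher in cluster 0 (0.60, where 2.4% of all genes did). It was lower by that rule in clusters 2 (-0.53, where 3.49% were) and 8 (-0.57, where 19.5% were). Slc25a5, an ADP/ATP carrier gene, was at 0.46, -0.36 and -0.57 in clusters 0, 2 and 7. Atpif1, which encodes an inhibitor of ATP synthase, was at 0.36 and -0.62 in clusters 0 and 7. In cluster 8 the rest of the list did not follow Ucp2: Slc25a4 was at -0.11, and the others lay above 0, among them Atpif1 (0.345), Slc25a5 (0.335) and Vdac3 (0.296).

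Of 17 electron carriers and genes that feed the chain, 3 were lower in cluster 7 and 3 in cluster 6 by the size rule. Of all genes 24.3% and 26.2% were lower in these clusters. Those shares take in genes with no count, whereas all 17 had counts in both clusters, so no comparison is drawn. Etfb, of the electron transfer flavoprotein, was at 0.39 in cluster 0 and -0.74 in cluster 7. Cycs, the cytochrome c gene, was at 0.25 and -0.56 in the same clusters. Coq6, a ubiquinone synthesis gene, ranged from -0.66 in cluster 9 to 0.41 in cluster 8 and passed in neither. Etfdh, which passes electrons from the flavoprotein to ubiquinone, was at -0.71 in cluster 6.

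Of 27 genes that copy, transcribe or process mitochondrial DNA and RNA, 5 were lower and 2 higher in cluster 7 by the size rule (24.3% and 1.84% of all genes), with a median of -0.22. Lrpprc and Slirp encode partners that stabilise mitochondrial messenger RNAs, and they went apart: Lrpprc was at 0.73 in cluster 7 and -0.57 in cluster 6, and Slirp was at -0.92 and -0.06. Tfam, which packages mitochondrial DNA and starts its transcription, was at -0.45 and -0.15 in these clusters, and the mitochondrial RNA polymerase gene Polrmt was at 0.18 and -0.15. Fastkd2, an RNA-binding protein gene, was at 0.74 in cluster 8 and -0.76 in cluster 9. In cluster 7, 18 of the 27 lay below 0, and 61% of all genes did, those with no count included.

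Of 11 regulators of mitochondrial biogenesis, 2 were higher in cluster 8 by the size rule (2.37% of all genes). These were Nrf1 at 0.83 and Gabpb1, which encodes the partner of GABPA, at 0.78; Esrra, a nuclear receptor gene, was at 0.55 and did not pass. Gabpa itself was at -0.00. Gabpb1 was at -0.70 in cluster 7. Sirt1, a deacetylase gene, was at -0.84 in cluster 6. Of 27 assembly genes outside the naming rule, 7 were lower in cluster 7, among them Coa3 at -0.83 and Coa4 at -0.79. Of all genes 24.3% were lower there, a share that takes in genes with no count, so no comparison is drawn. Coa3 was also lower in cluster 9, at -0.58, and Coa7 was lower in cluster 6, at -0.85.

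The authors' deposited pathway tables score 2922 gene sets in the same cells, so they are not independent of the genes. The KEGG set for oxidative phosphorylation was at 0.07, -0.06 and 0.19 in clusters 0, 4 and 8, in log2 units. In cluster 7 the Reactome respiratory electron transport set was at -0.21 and the WikiPathways oxidative phosphorylation set was at -0.01. Which genes of each genome these sets hold was not analysed here.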

How the data were processed

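Droplet single-cell RNA counts were processed by the authors with Scanpy on the mm10 build, per the submitters' processing notes; the aligner, cell filters, clustering and test were not given in the sources used here. Each deposited gene table holds, for 17068 genes, a log2 mean level (counts per 10000, over all cells), a log2 fold change of 1 cluster against the rest, and a p-value over cells with its adjusted value. The authors' pathway tables hold a score, which is a signed test statistic, beside a log2 fold change. Of the deposited genes 13 have no count and were left out, and folds under -10 mean no count in the cluster.

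Cluster sizes were read from the deposited p-values of genes seen in 1 cell (both sides for 7 clusters, 1 side for 4). A cluster's mean level was solved from the overall mean, the fold and the size. Sizes and levels were tested on simulated data. Counts there varied within a cluster only by sampling and depth, so the test cannot show how levels hold under wider variation between cells. Calls needed a fold of at least 0.5 (or 0.1, the finer rule) in size with a deposited adjusted p under 0.05. No test was run, because the tables pool the mice within each cluster. The members and lists were chosen with earlier results of these data known. Named were the 13 mitochondrial genes, members past the size rule in clusters 0 to 9, the 2 of each complex with the widest range of folds, isoform pairs and up to 3 genes of each further list; Sdha, Ndufs1, Ndufb10, Ndufa10, Cyc1, Cox10, Cycs, Tfam, Polrmt, Nrf1 and Gabpa were added after their values were seen. Coordinates are from GENCODE M21, matched for 115 of 117 members. Computations used Python 3.11.15, pandas 2.3.3, NumPy 2.4.6, SciPy 1.17.1 and matplotlib 3.10.9. The alternatives were other fold thresholds, means in place of medians, leaving out a member or low genes, other gene sets, centring, and cluster sizes fitted by least squares.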

Additional observations from a re-analysis of the deposited data

How the results depend on the processing

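Of 324 comparisons of a result with an alternative, 317 stayed within the spread over genes, or within 1.5 times for a count. Among the 317 the sign changed in 6, all of medians no further than 0.06 from 0: the mitochondrially encoded median with centring in clusters 0 (-0.006) and 1 (0.029) and with the mean in cluster 9 (0.060), and with 1 member left out complex III in cluster 1 (0.028) and complex II in clusters 3 (-0.026) and 9 (-0.004). The alternatives were leaving out any 1 member, the mean in place of the median, members at or above the median level only, adding assembly factors or mt-Nd6, leaving out complex II or tissue-restricted isoforms, the fold threshold alone, cluster sizes by least squares and, chosen after seeing the data, Ndufa4 in complex I and leaving out cluster 7. The other 7 came from 3 settings. Centred on the median of genes at or above the median level, the mitochondrially encoded median was -0.46 in cluster 6 and -0.17 in cluster 8, and the nuclear median was 0.33 in cluster 6. With the same centring the medians of cluster 10 changed sign, to -0.21 for the mitochondrially encoded genes and -0.043 for the nuclear subunits, as the centre itself was at 0.31. With a fold threshold of 0.25 in place of 0.5, calls of members as higher in clusters 0 to 9 numbered 80 in place of 20. Without cluster 7, members past the size rule in at least 1 cluster numbered 19 in place of 85. No paired analysis was possible because the tables pool libraries. Cluster 10 holds 10 cells, so its values have the least support.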
